A study of Mus musculus with 10 samples.

Results

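The mitochondrial ribosomal protein genes examined here are the 76 genes whose symbol begins with Mrpl (47 genes, proteins named for the large subunit) or Mrps (29 genes, proteins named for the small subunit) followed by a number. They are 76 of the 18193 genes that the arrays' annotation names, and each is read from 1 probe set, the set of short DNA probes that measures a transcript; where a gene had several, its probe set was chosen by the highest mean log2 value over the 10 arrays. No difference between groups entered that choice, but the gene family itself was picked with earlier results of these arrays known. Expression was measured in CGR8 cells, a mouse embryonic stem (ES) cell line of strain SV129, and in cells differentiated from them, each with and without EBIO, an agent that activates calcium-activated potassium channels. The study's title concerns these channels, the formation of heart cells and cells resembling those of the pacemaker.

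All 10 arrays came from this 1 line, with no genetic change named. The ES cells were either untreated (n = 3, passages 25, 26 and 27) or treated with 1 mM EBIO for 3 days (n = 3, the same passages). The differentiated cells were grown as embryoid bodies, the free-floating aggregates in which ES cells begin to differentiate, for 5 days and then for 10 days in culture without EBIO (n = 2) or with it (n = 2, dose not given in the labels). The samples of a group are described as independent experiments, and p-values measure the spread between those. Values are the authors' log2 expression values made with RMA, so a difference of 1 is a 2-fold change. RMA compresses the low end of its scale, so differences of dim probe sets are understated. The ES and the differentiated arrays had been normalized as separate sets, and no level is compared between them.

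Mitochondria keep a small genome that encodes core subunits of the respiratory chain together with the ribosomal and transfer RNAs needed to make them. The proteins of their ribosome are encoded in the nucleus, made in the cytosol and imported. Some descend from bacterial ribosomal proteins and others exist only in mitochondria. The large subunit joins amino acids and releases the new chain through a tunnel next to the inner membrane, and the small subunit binds the messenger and decodes it. Heart muscle is rich in mitochondria, while ES cells are known for few and immature ones.

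In ES cells treated with EBIO most mitochondrial ribosomal protein genes were lower than in untreated cells, and in differentiated cells more of them were higher with EBIO than lower. Of the 76 members, 40 fell and 5 rose in ES cells, against 21.2% and 23.5% of all 12096 genes tested, 44.8% in either direction (limma, Benjamini-Hochberg adjusted p under 0.05). That is 52.6% of the members lower and 6.58% higher. The median member differed by -0.42 on the log2 scale (EBIO minus control), beside -0.04 for all genes tested. In differentiated cells 35 members rose and 8 fell by the probe set used, 46.1% and 10.5% of them, against 33.3% and 32.6% of 12330 genes, 66.0% in either direction, and the median member differed by 0.17, beside 0.02. All 76 members were bright enough to be tested in every comparison. In bulk RNA a lower value from fewer cells of a kind and one from less RNA per cell cannot be told apart.

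The stretches of DNA just upstream of 4 members are shown because these genes stand for the patterns described below and because the start site that RefSeq's promoter table gives for each is also the outer end of its gene record. Mrpl39 fell with EBIO in ES cells and rose in differentiated cells, Mrps18b fell in both, its relative Mrps18a fell in ES cells, and Mrps6 rose in both. Each line holds the 250 bases before the start site in mouse build GRCm38.p6, read 5′ to 3′ on the gene's strand. The positions are chr16:84735245-84735494 on the minus strand for Mrpl39, chr17:35916441-35916690 on the minus strand for Mrps18b, chr17:46110754-46111003 on the plus strand for Mrps18a and chr16:92058086-92058335 on the plus strand for Mrps6. Capitals mark an NRF1 motif in Mrpl39 and an ETS motif, which GABP binds, in Mrps18a. NRF1 and GABP are classic regulators of nuclear genes for mitochondria.
Mrpl39: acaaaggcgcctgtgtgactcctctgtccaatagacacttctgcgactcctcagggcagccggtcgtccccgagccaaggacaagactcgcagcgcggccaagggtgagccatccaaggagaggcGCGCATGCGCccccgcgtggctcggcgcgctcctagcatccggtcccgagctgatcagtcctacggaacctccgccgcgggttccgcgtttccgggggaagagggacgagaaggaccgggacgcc
Mrps18b: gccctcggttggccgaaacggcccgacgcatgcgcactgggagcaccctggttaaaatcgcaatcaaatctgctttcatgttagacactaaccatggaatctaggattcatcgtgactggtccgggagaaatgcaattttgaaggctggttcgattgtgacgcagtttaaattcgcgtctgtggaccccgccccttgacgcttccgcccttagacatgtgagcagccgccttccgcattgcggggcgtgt
Mrps18a: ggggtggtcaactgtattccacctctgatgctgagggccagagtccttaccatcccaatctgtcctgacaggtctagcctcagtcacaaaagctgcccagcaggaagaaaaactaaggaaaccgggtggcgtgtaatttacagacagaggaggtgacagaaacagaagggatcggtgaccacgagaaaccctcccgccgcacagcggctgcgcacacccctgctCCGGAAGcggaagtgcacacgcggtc
Mrps6: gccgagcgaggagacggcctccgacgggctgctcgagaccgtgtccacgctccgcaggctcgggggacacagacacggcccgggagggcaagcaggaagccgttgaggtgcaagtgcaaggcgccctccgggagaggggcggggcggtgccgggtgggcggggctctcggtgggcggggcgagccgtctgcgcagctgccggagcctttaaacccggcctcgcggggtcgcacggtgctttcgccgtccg

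Motifs were searched on both strands of windows from 250 bases before to 50 bases after the start, which the table holds for 67 of the 76 members. In 45 of these the start site is the outer end of the gene record, and in 22 it lies inside the record. The NRF1 motif, which allows any base at 1 position and of which the capitals in Mrpl39 are a match, was in 12 member windows (17.9%), beside 6.6% of the windows of 17492 protein-coding genes. The ETS motif CCGGAAG was in 24 (35.8%, beside 11.9%) and the YY1 motif AAGATGGCG in 8 (11.9%, beside 1.9%). At least 1 of the 3 motifs was in 38 member windows (56.7%), beside 18.6% of coding windows. The E-box CACGTG, the site of Myc proteins, was in 5 member windows (7.5%), beside 7.9% of coding windows. The GC box GGGCGG was in 34 (50.7%), beside 46.3%, and its short letters can overlap other GC-rich motifs. A match is a description of the letters and was not tested as a binding site.

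Members with and without each of the 3 motifs had medians on the same side of 0 in each stage. The 12 members with the NRF1 motif had a median log2 difference of -0.37 in ES cells and 0.19 in differentiated cells, and the 55 without it -0.42 and 0.17. The 24 with the ETS motif had -0.29 and 0.15, and the 43 without it -0.49 and 0.21. The 8 with the YY1 motif had -0.61 and 0.17, and the 59 without it -0.37 and 0.17. Of the 4 genes printed, Mrps6 had none of these 3 motifs in its window. The windows of Mrps18b and Mrps18a held an ETS and a YY1 match, respectively, in the bases past the printed stretch.

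On the single arrays the median member lay on the same side of the control mean in every EBIO array of a stage. The median member lay 0.53, 0.37 and 0.47 below the control mean on the EBIO arrays of ES cells, on the log2 scale, while on the control arrays it lay at -0.08, 0.10 and -0.01. Compared within passages, the median difference was -0.42 at passage 25, -0.45 at passage 26 and -0.48 at passage 27, with 54, 64 and 63 of 76 members below 0. In differentiated cells the median member lay at 0.21 and 0.14 on the EBIO arrays and at -0.02 and 0.02 on the control arrays. The EBIO arrays thus lay outside the control arrays in both stages.

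**Figure D1:**
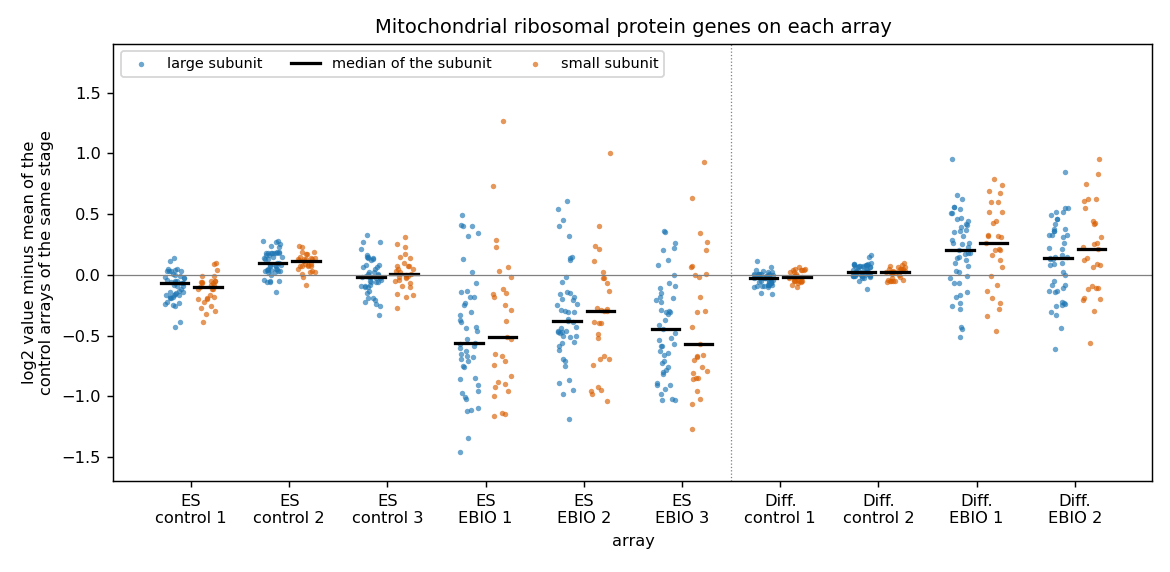
Log2 value of each of the 76 members on each of the 10 arrays, less the mean of the control arrays of the same stage; blue points are the 47 large subunit members, orange points the 29 small subunit members, and black bars the median of each subunit. Both subunits sit below 0 on all 3 EBIO arrays of ES cells (large -0.56, -0.37 and -0.45; small -0.51, -0.30 and -0.57) and above 0 on both EBIO arrays of differentiated cells (large 0.20 and 0.14; small 0.25 and 0.21).

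The 2 subunits gave similar counts, set side by side without a test. In ES cells 25 of 47 large subunit members fell and 3 rose, and 15 of 29 small subunit members fell and 2 rose, each with a median of -0.42. The interquartile range of the large subunit's differences ran from -0.68 to -0.22 and that of the small subunit from -0.77 to -0.07. In differentiated cells 20 large subunit members rose and 5 fell (median 0.16), and 15 small subunit members rose and 3 fell (median 0.21). Structures of the mammalian ribosome place the products of Mrps30 and Mrps18a in the large subunit, and Mrps36 is now known as a part of the oxoglutarate dehydrogenase complex. With these 3 genes so assigned the medians were -0.46 (large) and -0.39 (small) in ES cells and 0.15 and 0.25 in differentiated cells. The 45 members listed as of bacterial descent and the 30 listed as mitochondria-specific both had a median of -0.42 in ES cells. In differentiated cells their medians were 0.16 and 0.17. The list of 30 includes Mrps18a and Mrps18b, although both are counterparts of bacterial S18.

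**Figure D2:**
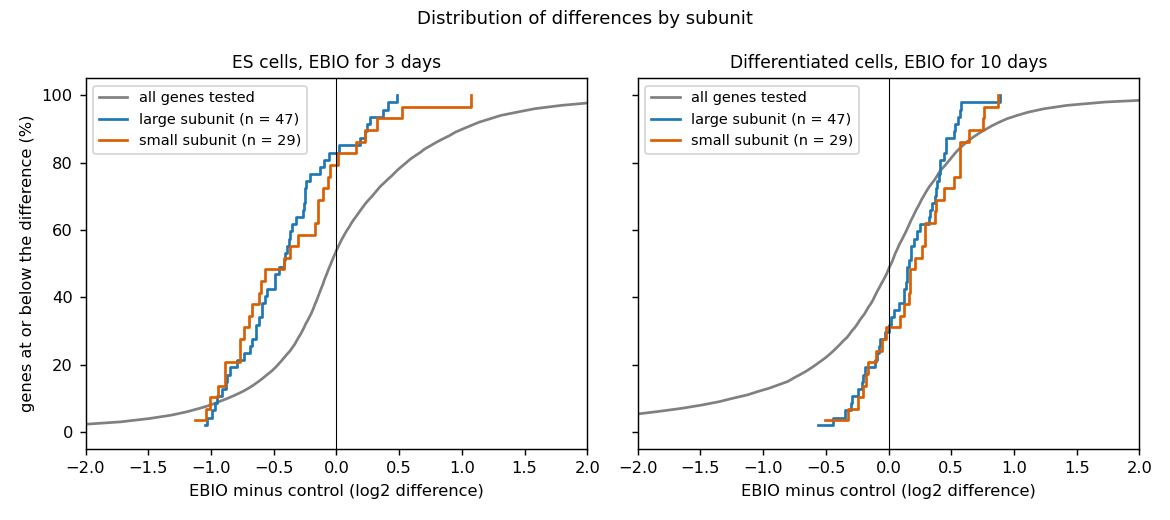
Cumulative percentage of genes (vertical axis) at or below each log2 difference between EBIO and control (horizontal axis), for ES cells on the left and differentiated cells on the right; grey is all genes tested, blue the large subunit and orange the small. Both subunit curves lie left of the grey curve over most of their range in ES cells (medians -0.42 and -0.42, beside -0.04) and cross it in differentiated cells, where no member reached a change of 1 in either direction.

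Among large subunit genes in ES cells, those for proteins at or near the exit of the tunnel were mostly lower. Of Mrpl17, Mrpl22, Mrpl23, Mrpl24, Mrpl45 and Mrpl47, 5 fell, with a median of -0.71, beside 25 of the 47 large subunit members and 21.2% of all genes. This group and those named after it were drawn from structures of the ribosome after the values were seen, and the count supports no statement about the tunnel exit. Mrpl45, which helps to hold the ribosome at the inner membrane, measured 10.20, 10.42 and 10.25 in control arrays and 9.28, 9.34 and 9.40 with EBIO. All 3 EBIO values lay below the control values (log2 difference -0.95 ± 0.12 (SE), adjusted p = 2.9e-04, limma, n = 3 each). Mrpl23, a tunnel exit protein with a bacterial counterpart, measured 9.55, 9.59 and 9.08 and then 8.30, 8.94 and 8.43, again without overlap (-0.85 ± 0.21, adjusted p = 0.0089). Mrpl17 was the exception, with a difference of 0.02 ± 0.14 (adjusted p = 0.93, limma).

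The 5 genes drawn from the central protuberance, the crown of the large subunit, were all below 0, as were 6522 of all 12096 genes tested. Of the 5, 2 passed the test as lower, beside 21.2% of all genes. This group too was drawn after the values were seen, and its count supports no statement about that part. Mrpl38 and Mrpl40 fell, while Mrpl46 (-0.24), Mrpl48 (-0.35) and Mrpl58 (-0.32) did not pass. Mrpl38 measured 8.91, 9.16 and 8.65 in control arrays and 7.94, 7.93 and 7.88 with EBIO, and the EBIO values lay well below and close together (-0.99 ± 0.15, adjusted p = 7.7e-04, limma). Its next probe set differed by -0.26 and did not pass (adjusted p = 0.18, limma). Mrpl40 measured 10.15, 10.25 and 10.13 and then 9.53, 9.49 and 9.45 (-0.69 ± 0.11, adjusted p = 0.0012). Mrpl58, a peptidyl-tRNA hydrolase built into the ribosome, had groups that did not overlap although it missed the threshold (adjusted p = 0.10, limma).

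The stalks of the large subunit, which recruit translation factors and guide the leaving tRNA, gave unequal results. Mrpl12, the stalk protein that also binds the mitochondrial RNA polymerase, measured 9.78, 9.88 and 9.90 in control and 9.67, 9.83 and 9.76 with EBIO, and its groups overlapped (-0.10 ± 0.12, adjusted p = 0.52, limma). Mrpl11, at the base of that stalk, fell from 9.32, 9.49 and 9.81 to 8.79, 9.11 and 9.02 (-0.57 ± 0.16, adjusted p = 0.019). Mrpl10, which anchors Mrpl12, differed by 0.23 (adjusted p = 0.16) with EBIO values all above the control values. Mrpl1, of the stalk on the other side, measured 7.24, 7.94 and 7.82 and then 6.21, 7.21 and 6.85, with wide spread but no overlap (-0.91 ± 0.27, adjusted p = 0.024). The call for Mrpl1 was lost without EBIO array 1 (-0.64) or control array 2 (-0.77), and that for Mrpl11 without EBIO array 1 (-0.47).

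Other large subunit genes included the largest falls of that subunit. Mrpl36, for the smallest protein of the bacterial large subunit, measured 7.99, 7.92 and 8.27 in control and 6.72, 7.17 and 7.15 with EBIO. The highest EBIO value lay below the lowest control value, and the difference was -1.05 ± 0.16 (adjusted p = 9.5e-04, limma), a 2.07-fold fall. Mrpl39, related in sequence to threonyl-tRNA synthetase, measured 10.95, 11.16 and 11.30 and then 10.02, 9.95 and 10.36, also apart (-1.03 ± 0.15, 2.04-fold lower, adjusted p = 7.5e-04). Mrpl35 fell from 9.65, 9.73 and 9.66 to 8.82, 9.22 and 9.09 (-0.64 ± 0.14, adjusted p = 0.0051); as the mean of its probe sets it was -0.35 and did not pass (adjusted p = 0.082).

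Small subunit genes held the largest single fall and the largest single rise. Mrps35, a protein found only in mitochondria, measured 8.98, 9.27 and 8.88 in control and 7.88, 8.09 and 7.77 with EBIO. Every EBIO value was below every control value (-1.13 ± 0.15, 2.19-fold lower, adjusted p = 3.8e-04, limma). Mrps9, with a bacterial counterpart in the head of the subunit, went from 8.61, 8.94 and 8.88 to 7.67, 7.77 and 7.96 (-1.01 ± 0.14, 2.01-fold lower, adjusted p = 5.2e-04). Of its 3 further probe sets 2 were lower as well (-0.60 and -0.99) and 1 was not (0.10). Mrps31, another mitochondria-specific protein, went from 9.15, 9.35 and 9.20 to 8.40, 8.56 and 8.44 (-0.77 ± 0.12, adjusted p = 9.5e-04). Mrps16, whose human counterpart is mutated in a mitochondrial disease, went from 9.97, 10.11 and 10.05 to 9.37, 9.55 and 9.19 (-0.67 ± 0.13, adjusted p = 0.0033). In all 4 genes the groups were apart.

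Bacterial protein S18 has 3 counterparts in mitochondria, and they differed. Mrps18b fell from 9.66, 9.83 and 9.78 to 8.61, 8.80 and 8.74, the smallest adjusted p among the members in ES cells (-1.04 ± 0.12, 2.06-fold lower, adjusted p = 1.8e-04, limma). Mrps18a, in the large subunit by structure, fell from 8.76, 8.96 and 8.59 to 8.06, 8.37 and 8.01 (-0.62 ± 0.15, adjusted p = 0.0095). Mrps18c measured 9.32, 9.76 and 9.76 and then 9.46, 9.32 and 9.63, with overlap (-0.15 ± 0.16, adjusted p = 0.49). Mrps30, also in the large subunit by structure, fell from 9.40, 9.53 and 9.45 to 8.56, 8.94 and 8.79 (-0.70 ± 0.13, adjusted p = 0.0029). Mrps12, at the decoding centre, measured 9.69, 9.58 and 9.51 and then 9.35, 9.33 and 9.17; its groups were apart, but it did not pass (-0.31 ± 0.12, adjusted p = 0.066), and with passage as a block it did (adjusted p = 0.039, limma).

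The 5 members that rose in ES cells were Mrps6, Mrps26, Mrpl54, Mrpl14 and Mrpl41. Mrps6, which sits on the platform of the small subunit, measured 7.92, 8.48 and 8.31 in control and 9.51, 9.24 and 9.17 with EBIO, fully apart (1.07 ± 0.17, 2.10-fold higher, adjusted p = 0.0011, limma). Its next probe set rose by a like amount (1.11), and its call held under every alternative run. Mrps26, a mitochondria-specific protein, measured 8.62, 8.87 and 8.74 and then 9.47, 8.95 and 9.37 (0.52 ± 0.16, adjusted p = 0.029). Mrpl54 (0.48 ± 0.14), Mrpl14 at the face between the subunits (0.41 ± 0.14) and Mrpl41 (0.37 ± 0.13) had adjusted p of 0.018, 0.041 and 0.040. Calls of these smaller rises were lost when single arrays were left out. Leaving out EBIO array 1 or control array 1 left 1 member higher, EBIO array 2 or 3 left 2, and control array 3 left 3. In the runs without 1 array that lost its call, Mrpl41 still differed by 0.33 to 0.43. The next probe sets of Mrpl54 (0.01, adjusted p = 0.98) and Mrpl41 (0.24, adjusted p = 0.21) did not pass (limma). Mrps36 differed by 0.32 ± 0.13 with groups apart (adjusted p = 0.072, limma, and 0.044 with passage as a block).

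Among all 76 members in ES cells, 46 had EBIO values wholly below the control values and 7 wholly above, against 26.8% and 27.9% of all genes tested. The 45 called members were all among these, and in 23 members the groups overlapped. Only Mrps6 rose, and Mrps35, Mrpl36, Mrps18b, Mrpl39 and Mrps9 fell, by at least 1 on the log2 scale. Other measures moved with EBIO in these arrays. The 6 ES cell markers averaged 11.98 to 12.10 in control and 7.92 to 8.38 with EBIO, 1 of them under the array median there, and the proliferation markers 10.50 to 10.75 and 9.99 to 10.36. The 4 smooth muscle markers averaged 5.22 to 6.12 in control and 8.36 to 8.57 with EBIO, 1 of them under the array median in both. The 3′ probe set of Actb exceeded its 5′ probe set by 0.42 ± 0.09 (SD, n = 3) in control and 0.14 ± 0.06 with EBIO, while for Gapdh the values were -0.01 ± 0.07 and 0.02 ± 0.02. The part of these in the members' fall was not tested.

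**Figure D3:**
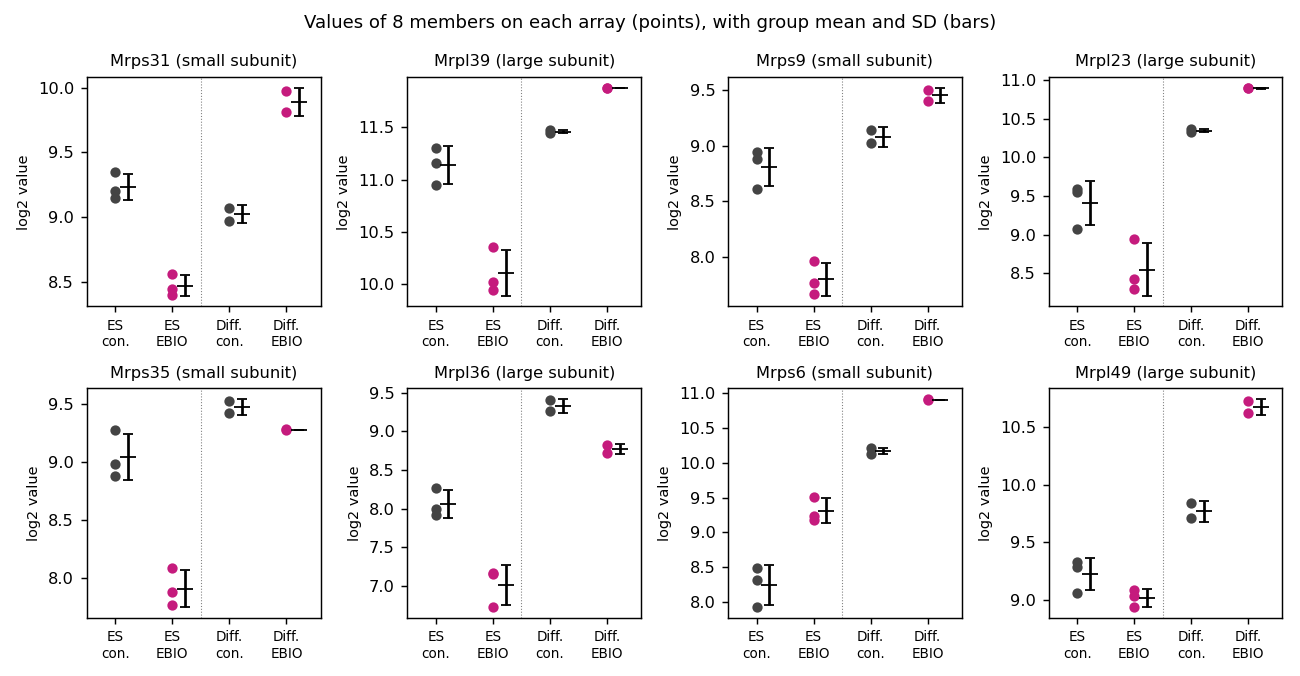
Log2 values (vertical axes, each with its own range) of 8 members on each array; grey points are control and pink points EBIO arrays of ES cells (n = 3 each) and differentiated cells (n = 2 each), and bars give the group mean and SD. Levels left and right of the dotted line come from separately normalized sets. Mrps31 goes down in ES cells (9.23 to 8.47) and up in differentiated cells (9.02 to 9.89), Mrpl36 goes down in both and Mrps6 up in both.

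In differentiated cells the rises of large subunit genes were led by Mrpl49. This mitochondria-specific protein gene measured 9.71 and 9.84 in control and 10.72 and 10.62 with EBIO (0.89 ± 0.08 (SE), 1.86-fold higher, adjusted p = 2.5e-04, limma, n = 2 each). Mrpl55 measured 9.19 and 9.21 and then 9.86 and 9.69 (0.58 ± 0.08, adjusted p = 0.0016), and Mrpl23, of the tunnel exit, 10.32 and 10.36 and then 10.90 and 10.89 (0.55 ± 0.07, adjusted p = 8.2e-04). In each the EBIO values lay above both control values. Mrpl41 (0.44 ± 0.10), Mrpl39 (0.41 ± 0.07), Mrpl12 (0.39 ± 0.07) and Mrpl10 (0.41 ± 0.07) rose as well, with adjusted p of 0.0090, 0.0025, 0.0051 and 0.0040. Mrpl1 rose by 0.40 ± 0.08, but its next probe set was at -0.03. Mrpl38 rose by 0.32 ± 0.08, while its 2 further probe sets were at 0.15 and -0.27.

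The small subunit rises were led by Mrps31, Mrps25 and Mrps6. Mrps31 measured 9.07 and 8.97 in control and 9.81 and 9.97 with EBIO (0.87 ± 0.09, 1.83-fold higher, adjusted p = 3.6e-04, limma). Mrps25, a mitochondria-specific protein, measured 9.04 and 9.14 and then 9.78 and 9.92 (0.76 ± 0.08, adjusted p = 5.4e-04), and Mrps6 10.21 and 10.13 and then 10.91 and 10.92 (0.75 ± 0.07, adjusted p = 2.8e-04). The groups did not overlap in any of the 3. Mrps12 of the decoding centre rose by 0.64 ± 0.07 (adjusted p = 4.7e-04), Mrps26 by 0.57 ± 0.07 (adjusted p = 7.4e-04), Mrps9 by 0.37 ± 0.08 (adjusted p = 0.0093) and Mrps36 by 0.27 ± 0.09 (adjusted p = 0.041). Mrps30 (-0.05), Mrps18a (-0.02), Mrps18c (0.09) and Mrps35 (-0.20, adjusted p = 0.056) did not pass.

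The probe sets used fell in differentiated cells for Mrpl36, Mrps16, Mrpl11, Mrps18b, Mrpl40, Mrpl19, Mrps2 and, with its other probe sets opposed, Mrpl35; all 8 had fallen in ES cells too. Mrpl36 measured 9.26 and 9.40 in control and 8.82 and 8.72 with EBIO (-0.56 ± 0.08, 1.47-fold lower, adjusted p = 0.0018, limma). Mrps16 measured 11.45 and 11.56 and then 11.04 and 10.94 (-0.51 ± 0.08, adjusted p = 0.0021), and Mrpl11 10.44 and 10.51 and then 10.04 and 10.03 (-0.44 ± 0.07, adjusted p = 0.0024). Both EBIO values lay below both control values in each. Mrps18b (-0.32 ± 0.07) and Mrpl40 (-0.30 ± 0.07) had adjusted p of 0.0094 and 0.013. For Mrpl35 the probe set used fell by 0.35 on the log2 scale (10.33 and 10.27, then 9.85 and 10.06, adjusted p = 0.018), but the next of its probe sets rose by 2.09 (adjusted p = 3.9e-05, limma) and the remaining one was at 0.09, so the gene's direction is uncertain and its place among the 8 rests on that probe set.

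No member changed by 1 or more on the log2 scale in differentiated cells, and calls there rest on small differences between closely agreeing pairs of arrays. The EBIO values lay above the control values in 49 members and below in 16, against 43.4% and 41.0% of all genes tested, and overlapped in 11. With the spread estimated from all 4 groups together, 20 members were higher and 4 lower; Mrpl1, Mrpl11, Mrpl23, Mrpl35, Mrpl38, Mrpl39, Mrps9 and Mrps36 were among those that lost the call (adjusted p from 0.051 to 0.30, limma). Leaving out EBIO array 2 left 5 members lower, with Mrpl40 (-0.28) no longer called, and leaving out EBIO array 1 ended the call of Mrpl38 (0.26). Mrps36 lost its call without either EBIO array (0.24 and 0.31) or without control array 1 (0.17), and Mrpl40 also without control array 2 (-0.26). Cell type markers moved far more than the members did. The 8 heart muscle markers averaged 8.49 to 8.57 in control and 12.67 to 12.71 with EBIO. Fibroblast markers (6) went from 12.96 to 12.99 down to 7.59 to 7.70, macrophage markers (6) from 10.84 to 11.12 down to 4.73 to 4.76, endothelial markers (5) from 7.79 to 7.80 down to 4.65 to 4.70 and liver and endoderm markers (5) from 9.04 to 9.27 down to 5.29 to 5.42. With EBIO 5 of the 6 macrophage and 4 of the 5 endothelial markers were under the array median. Smooth muscle markers (4) went from 9.07 to 9.10 up to 9.99 to 10.04, and proliferation markers from 10.62 to 10.81 down to 9.91 to 10.00. The part of these in the members' changes was not tested.

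The EBIO difference itself differed between the stages. Stage cannot be told apart here from time with EBIO (3 and 10 days), dose or the separate normalization. The dose was 1 mM in ES cells and is not given for differentiated cells. In a fit of all 4 groups, the difference in differentiated cells minus that in ES cells was above 0 in 70 of 76 members (median 0.57, beside 0.04 for all 13706 genes tested). It passed the threshold upward in 40 members (52.6%), against 20.5% of all genes, and downward in 0, against 25.0% (45.5% in either direction); at an unadjusted p under 0.05 it was also 0 (limma). Both subunits took part, with 25 of 47 large and 15 of 29 small subunit members. The largest was Mrps31 (1.64 ± 0.16 (SE), adjusted p = 1.1e-05), followed by Mrpl39 (1.44 ± 0.21, adjusted p = 1.8e-04), Mrpl23 (1.40 ± 0.28, adjusted p = 0.0018), Mrps9 (1.38 ± 0.19, adjusted p = 1.4e-04), Mrpl38 (1.31 ± 0.20, adjusted p = 3.0e-04) and Mrpl1 (1.30 ± 0.38, adjusted p = 0.016). The threshold was not reached by the next probe sets of Mrpl38 (0.41) and Mrpl1 (0.62).

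The members fell into a few combinations. These were not counted over all genes, so they describe the members only. Of all genes tested, 21.2% fell and 23.5% rose in ES cells, and 32.6% fell and 33.3% rose in differentiated cells. In 15, 10 of the large and 5 of the small subunit, the probe set used fell in ES cells and rose in differentiated cells. They were Mrpl1, Mrpl2, Mrpl4, Mrpl16, Mrpl23, Mrpl32, Mrpl38, Mrpl39, Mrpl42, Mrpl47, Mrps9, Mrps10, Mrps24, Mrps31 and Mrps34. In differentiated cells Mrpl1, Mrpl38 and Mrps10 each had a further probe set on the other side of 0. The difference between the stages passed in all 15. As the 15 were picked by opposite calls on the same arrays, this adds no separate support. With the spread estimated from all 4 groups only 6 of the 15 (Mrpl16, Mrpl42, Mrpl47, Mrps24, Mrps31 and Mrps34) were still called higher in differentiated cells. In 8, Mrpl35 by 1 of its probe sets, the value fell in both stages, and in 3 (Mrpl41, Mrps26 and Mrps6) it rose in both, with a difference between the stages of 0.06, 0.05 and -0.33 that did not pass. A further 17 passed as lower in ES cells but not in differentiated cells, and 17 as higher in differentiated cells but not in ES cells; the difference between the stages passed in 13 and 8 of these. In 14 members neither comparison passed. Across the 76 members the differences of the 2 stages, which share no arrays, correlated with Pearson's r of 0.39 and Spearman's rho of 0.37. These are across genes, which are not independent replicates.

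**Figure D4:**
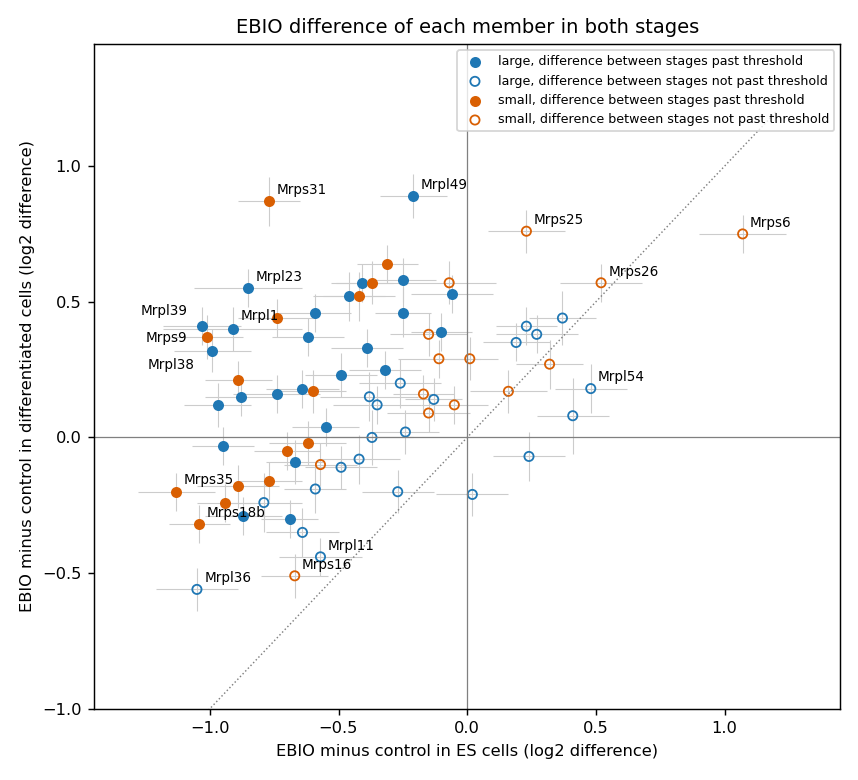
Log2 difference between EBIO and control in ES cells (horizontal axis) and in differentiated cells (vertical axis) for each of the 76 members, with standard errors as grey bars; blue is the large and orange the small subunit, and filled points are the 40 members whose difference between the stages passed the threshold. The dotted line marks equal differences: 70 of 76 members lie above it, Mrps31 (-0.77 and 0.87) farthest.

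Where a gene had other probe sets, they mostly gave the same direction in ES cells and less often in differentiated cells, a contrast that was not tested. The arrays held 156 probe sets for the 76 members, and 42 members had more than 1. In ES cells 49 of the 53 other probe sets that were bright enough lay on the same side of 0 as the one used, and among the called members 35 of 37, with Mrpl19 and Mrps9 having an opposed one. In differentiated cells the figures were 38 of 57 and 20 of 25, with opposed probe sets for Mrpl1, Mrpl35, Mrpl38 and Mrps10. Levels of different probe sets were not compared.

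Other proteins of the mitochondrial ribosome are named without the Mrp prefix. Of 5 tested in ES cells 3 fell and 0 rose, beside 21.2% and 23.5% of all genes. Their median was -0.63, and 0 rose at an unadjusted p under 0.05 too (limma). Gadd45gip1, which lies beside the tunnel exit, measured 8.08, 8.25 and 8.06 in control and 6.66, 6.74 and 6.65 with EBIO, a larger fall than in any of the 76 (-1.44 ± 0.12, adjusted p = 2.7e-05, limma). Oxa1l, the insertase that receives new chains in the inner membrane, fell by 0.89 on the log2 scale (adjusted p = 0.0020). Dap3 (-0.11) and Chchd1 (-0.25) did not pass there. In differentiated cells 3 of 5 rose and 1 fell (median 0.26), beside 33.3% and 32.6% of all genes, 66.0% in either direction. Gadd45gip1 did not pass there (0.18, adjusted p = 0.11, limma). The small subunit proteins Dap3 and Ptcd3 rose (0.48 ± 0.07 and 0.38 ± 0.08) and Chchd1 fell (-0.37 ± 0.11), with adjusted p of 0.0014, 0.0096 and 0.030.

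Genes that assemble and serve the mitochondrial ribosome are listed by role; their counts stand beside 21.2% of all genes lower and 23.5% higher in ES cells, and 32.6% lower and 33.3% higher in differentiated cells. Of 27 assembly factors and rRNA enzymes 11 (40.7%) fell and 0 rose in ES cells (median -0.31; 0 rose at an unadjusted p under 0.05, limma), and 15 (55.6%) rose and 1 fell in differentiated cells (median 0.28). Fastkd2 (-1.48) and Gtpbp10 (-1.40), which act on large subunit assembly, fell furthest in ES cells, and Noa1, a GTPase linked to the small subunit, rose furthest in differentiated cells (1.34 ± 0.07, adjusted p = 3.8e-05, limma). Of 13 translation factors 7 (53.8%) fell in ES cells (median -0.39) and 9 (69.2%) rose and 2 fell in differentiated cells (median 0.43). Among them Qrsl1 and Gatb, subunits of the enzyme that makes mitochondrial glutaminyl-tRNA, fell in ES cells (-1.71 and -0.73). Gatc, a further subunit, lay above 0 in ES cells without passing (0.45, adjusted p = 0.064, limma). In differentiated cells Gatc and Gatb rose (0.80 and 0.66), and Qrsl1 did not pass (-0.03, adjusted p = 0.76, limma). Mtrf1l (-0.40), a release factor, and Mrrf (-0.35), the ribosome recycling factor, fell there.

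The enzymes that load mitochondrial tRNAs and those that copy and transcribe the mitochondrial genome gave like counts. These stand beside the same shares of all genes. Of 15 aminoacyl-tRNA synthetases 7 (46.7%) fell and 1 rose in ES cells (median -0.35), led by Yars2 (-1.15) and Tars2 (-1.12), with Wars2 higher (0.41). Of 16 in differentiated cells 9 (56.2%) rose and 1 fell (median 0.31), led by Mars2 (0.75) and Iars2 (0.65), with Yars2 lower (-0.43). Of 15 genes for mitochondrial DNA and RNA synthesis 7 (46.7%) fell and 2 rose in ES cells (median -0.38), and 9 (60.0%) rose and 0 fell in differentiated cells (median 0.40; 0 fell at an unadjusted p under 0.05, limma). Tefm, the transcription elongation factor (-1.26), and Mterf1a (-1.26) fell in ES cells, while Polg, the DNA polymerase of mitochondria, rose in both stages (0.79 and 1.07). Grsf1, an RNA-binding protein of mitochondrial RNA granules, likewise rose in both (0.47 and 0.57), and Fastk rose in differentiated cells (0.95).

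Nuclear regulators of mitochondrial genes changed in both directions. Ppargc1b, a coactivator, measured 5.87, 5.65 and 6.50 in untreated ES cells and 4.07, 4.21 and 4.15 with EBIO (-1.87 ± 0.21, adjusted p = 1.5e-04, limma), the latter under the array medians of 4.52 to 4.55, where the scale is compressed. In differentiated cells it rose from 7.75 and 7.77 to 9.30 and 9.28 (1.54 ± 0.07, adjusted p = 1.6e-05). Ppargc1a, its better known relative, rose from 5.99 and 5.38 to 8.31 and 8.42 there (2.68 ± 0.20, adjusted p = 1.1e-04) and was too dim to be tested in ES cells. Gabpa, the DNA-binding subunit of GABP, fell in ES cells (-1.10 ± 0.13) and in differentiated cells (-0.41, adjusted p = 0.0027), and Nrf1 fell in ES cells (-0.77, adjusted p = 0.0040) and did not pass in differentiated cells (-0.22, adjusted p = 0.057). Mycn (-1.23) and Gabpb2 (-0.90) fell in differentiated cells, and Esrra rose (0.75). In all, 6 of 13 (46.2%) fell and 0 rose in ES cells (0 rose at an unadjusted p under 0.05, limma), beside 21.2% and 23.5% of all genes. In differentiated cells 4 of 14 (28.6%) rose and 8 (57.1%) fell (median -0.28), beside 33.3% and 32.6%. The share that rose there was below that of all genes.

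The proteins that mitochondrial ribosomes make are subunits of the respiratory chain, and the nuclear genes for that chain's other subunits are set beside the members. In ES cells 27 of 75 (36.0%) fell and 3 rose (median -0.29), beside 21.2% and 23.5% of all genes. In differentiated cells 56 of 74 (75.7%) rose and 4 fell (median 0.41), beside 33.3% and 32.6%. The protein genes of the cytosolic ribosome were listed by symbol, which takes in the relatives Rpl22l1, Rpl39l, Rpl7l1, Rps4l and Rps27l. All of these relatives but Rps27l fell in ES cells, and Rpl22l1, Rps4l and Rps27l fell in differentiated cells. Of the whole list 13 of 47 (27.7%, beside 21.2% of all genes) fell in ES cells (median -0.23). In differentiated cells 16 of 46 (34.8%, near the 32.6% of all genes) fell (median -0.11). In either stage 0 rose (at an unadjusted p under 0.05 0 rose in ES cells and 1 in differentiated cells, limma). The list's difference between the stages had a median of 0.11, with 3 of 47 higher and 1 lower. Beside this stand 40 and 0 of the 76 mitochondrial members, and 20.5% and 25.0% of all genes.

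**Figure D5:**
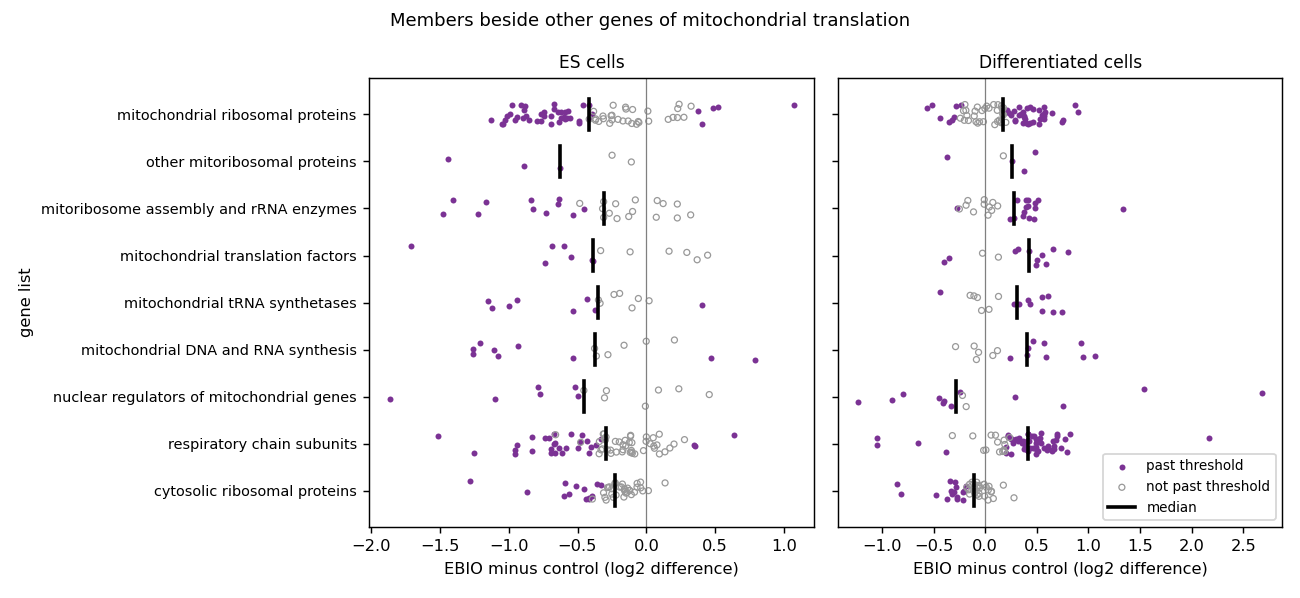
Log2 difference between EBIO and control (horizontal axis) of every tested gene in 9 lists (rows), for ES cells on the left and differentiated cells on the right; purple points passed the threshold, open points did not, and black bars are list medians. The lists of mitochondrial translation sit left of 0 in ES cells (medians -0.63 to -0.31) and right of 0 in differentiated cells (medians 0.17 to 0.43), while the regulators (-0.45 and -0.28) and the cytosolic ribosomal proteins (-0.23 and -0.11) sit left of 0 in both.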

How the data were processed

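RNA of 10 samples was hybridised to Affymetrix arrays after one-cycle biotin labelling, per the labels' protocols. The deposited values are log2 expression values that the authors made with RMA, per the submitters' processing notes; a label names BioConductor, its version not given in the sources used here. Quantiles of paired arrays differed on average by no more than 0.0931 inside the ES set (6 arrays) and 0.0497 inside the differentiated set (4 arrays), but by 0.910 or more across sets. No array was left out, and the number of arrays limits the precision.

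Of 45101 probe sets, 64 were controls; 34945 others had 1 gene symbol in the platform annotation, 932 had several and 9211 none. Symbols were updated through RefSeq's table. Of 160 probe sets with a member's symbol, 4 that list several genes were not used. Genes above the array median on 3 or more ES arrays, or on 2 or more in the other fits, entered the tests. These were made with limma 3.58.1 under R 4.3.3 (lmFit, eBayes) on the deposited log2 values, each stage on its own arrays, the difference between stages on all 4 groups. P-values were adjusted by Benjamini-Hochberg over all genes tested, with a threshold of 0.05. The fits were also run on simulated data, with spreads pooled over all 4 groups. Added changes of 0.5 were recovered in 29.2% of genes in ES cells and 0.0% in differentiated cells. Changes of 1 were recovered in 90.6% and 40.0%. For the difference between stages these were 0.0% and 64.2%. False calls made up 2.1%, 2.3% and 5.4% of the calls. All member changes in differentiated cells were under 1, so these runs lend their calls no support.

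Per stage the text names the 6 largest called rises and falls, all called members of a direction holding 5 or fewer, the 6 largest differences between the stages, 8 members fixed by role and the 2 largest changes each way per pathway list. Members, lists and tests were chosen with earlier results of these data known; others named (Mrpl10, Mrpl17, Mrpl45, Mrpl46, Mrpl48, Mrpl58, Nrf1, Esrra) were chosen after their values were seen. Replicate numbers pair ES samples by passage, and same-numbered samples deviated together (r = 0.328, 0.231 and 0.618). ES control sample 1 and EBIO sample 2, of different passages, did so too (r = 0.244), slightly more than the pair numbered 2. The remaining differently numbered ES pairs had r from -0.513 to 0.0836. For the pair numbered 2 these values thus do not set the passage pairing apart. Alternatives were other probe sets, filters, normalizations, variance models, the replicate block, subunit assignment and leaving out each array.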

Additional observations from a re-analysis of the deposited data

Results flagged for a closer look

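Stage cannot be told apart in these arrays from time with EBIO, dose or the separate normalization. For 15 of the named members the effect of EBIO differed between the stages by the interaction test (limma, adjusted p under 0.05), with the effect in differentiated cells minus that in ES cells given on the log2 scale. Among large subunit genes these were Mrpl39 (1.44), Mrpl23 (1.40), Mrpl38 (1.31), Mrpl1 (1.30), Mrpl49 (1.10), Mrpl55 (0.83), Mrpl12 (0.49) and Mrpl40 (0.39). Among genes named for the small subunit they were Mrps31 (1.64), Mrps9 (1.38), Mrps12 (0.96), Mrps35 (0.93), Mrps18b (0.72), Mrps30 (0.64) and Mrps18a (0.60). In Mrps35, Mrps18b, Mrpl40, Mrps30 and Mrps18a both differences lay below 0, and the effect was smaller in differentiated cells. There Mrps30 (-0.05) and Mrps18a (-0.02) lay near 0. Leaving out single arrays ended 5 of these calls. That of Mrpl1 was lost without EBIO array 2 (1.24) or control array 1 (1.28) of differentiated cells, that of Mrpl12 without EBIO array 1 (0.43) or either control array (0.48 and 0.49) there, and that of Mrps30 without EBIO array 1 (0.59) or control array 2 (0.62) there. That of Mrps18a was lost when any 1 of the 4 differentiated arrays, ES EBIO array 1 or 3, or ES control array 2 was left out (0.51 to 0.68). That of Mrpl40 was lost when any 1 of these arrays or ES EBIO array 2 was left out (0.34 to 0.43). Quantile normalization of all 10 arrays ended it as well (0.28, adjusted p = 0.13, limma). So did the replicate block and the run with the second brightest probe set of other genes (both adjusted p = 0.055, limma).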

How the results depend on the processing

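The fall of members in ES cells kept its direction and its count within 1.5 times under every alternative run, between 29 (second brightest probe set) and 47 (replicate block). Members higher there, 5 in the main fit, numbered 3 with the mean of probe sets or with quantile normalization of all 10 arrays. They numbered 2 with the second brightest probe set, chosen after seeing the data, and 1 to 5 leaving out single arrays. The mean of probe sets kept only 2 of the 5. Mrpl41, Mrpl54 and Mrps26 (0.21, adjusted p = 0.14, limma) lost the call, and Mrps36 gained it. In differentiated cells the fit of 4 groups gave 20 higher and 4 lower in place of 35 and 8, and leaving out single arrays gave 28 to 33 and 5 to 9. All genes higher there numbered 2624 in that fit, and all genes lower 2526 with the filter at the 75th percentile, in place of 4110 and 4022. The median of the large subunit ran from -0.53 to -0.36 in ES cells and from 0.14 to 0.20 in differentiated cells leaving out single arrays; that of the small subunit in differentiated cells ran from 0.17 to 0.25, and was 0.27 with the 75th percentile filter, 0.17 with the second probe set and 0.25 by structure. Reversed were Mrpl1 in differentiated cells (-0.03, second probe set) and Mrpl35 there (0.61 with the mean of probe sets, 2.09 with the second). The replicate block gave 6 higher and 47 lower in ES cells, 31 and 7 in differentiated cells and 46 and 0 for the difference between stages. Numbers did not pair the differentiated samples (r = -0.129); pairing them the other way gave 36 higher and 9 lower. Where leaving out an array left 1 in a differentiated group, that array was assumed to vary like the other groups. The cause of these changes was not tested.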
